A study of Mus musculus with 8 samples.

Results

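The mitosis genes are a list of 41 genes whose products carry a cell from entry into mitosis to the separation of its daughters: cyclins and Cdk1, mitotic kinases, the chromosomal passenger complex, the anaphase machinery, kinetochore proteins, kinesins, proteins of the spindle and of cytokinesis, and 2 proteins of chromosome structure. They were found by symbol in the 4 deposited tables, taking the RefSeq transcript with the highest mean where a symbol had several. Of the 41, 39 had a row, and 34 had a mean of 20 or more normalised reads over the 8 libraries and were tested, among 10599 tested transcripts of 19353. Tpx2 and Prc1 had no row and are not analysed here, and Ttk, Bub1, Spc25, Kif20a and Ect2 were too low to be tested.

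The libraries came from bone marrow cells of C57BL/6 mice, freed of most mature blood cells with a progenitor enrichment kit (lineage-negative cells). In all groups the cells are labelled as lacking Ring1a and Cdkn2a, the latter a locus that encodes inhibitors of cell cycle entry. Cells were given ethanol (control, labelled Ring1b WT) or 4-hydroxytamoxifen (OHT, labelled Ring1b KO) for 72 h. Ring1a and Ring1b are alternative catalytic subunits of the Polycomb repressive complex PRC1, so the cells labelled Ring1b KO are labelled as lacking both. Of the 4 contexts, NT cells are labelled as having no transduced gene, and the others received the homeobox gene HOXA9, or the fusion PML-RARa or MLL-AF9, both found in leukaemia. Each context had 1 control and 1 OHT library, and the labels do not say whether the pairs came from separate animals, how Ring1b was removed or which part of its gene is missing. The contexts are the sole replication, so p-values of the tests run here rest on the spread of the OHT over control ratio between contexts. An alternative fit that ignores the context rests on the spread of levels instead. The authors' deposited p-values compare 1 library with 1 library, and whether they draw on the other contexts is not given.

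Recovered reads ran from 4226751 to 6998223 per library and were fewer in the OHT library of each pair. Rnf2, the gene of Ring1b, was counted over its whole transcript (NM_011277) at 666 to 990.4 in the control libraries and 767 to 856 in the OHT libraries, so this level cannot check the knockout, and libraries are called by what they were given. Ring1, the gene of Ring1a, labelled as lost in all groups, was still counted (NM_009066), at 109 to 191 in the control libraries and 23.8 to 77.8 in the OHT libraries, and was lower with OHT in each pair. Markers of T, B and erythroid cells summed to 7.24 to 34.7 in any library, none of them high enough to be tested.

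Mitotic genes form a wave of transcription that peaks late in the cell cycle. In quiescent and early cycling cells the MuvB complex, with pocket proteins, holds them silent, and B-Myb and then FoxM1 join MuvB to activate them. MuvB contacts a short promoter element, the cell cycle genes homology region (CHR), often found downstream of CCAAT boxes that bind NF-Y. In bone marrow the level of these transcripts is widely used as a measure of how many progenitors are cycling.

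Promoters are shown for the 3 members with the lowest and the 3 with the highest mean OHT over control ratio, so that the ends of the range can be compared base by base. Each line gives the 150 bases before the RefSeq start site, 5′ to 3′ on the gene's strand, from RefSeq on build GRCm38.p6. Capitals mark the letters of a CHR (TTTGAA or TTCGAA) or a CCAAT box on either strand, so a box on the opposite strand reads ATTGG and a CHR reads TTCAAA. Matches of the 2 motifs were allowed to overlap.
Birc5 chr11:117849087-117849236 plus strand: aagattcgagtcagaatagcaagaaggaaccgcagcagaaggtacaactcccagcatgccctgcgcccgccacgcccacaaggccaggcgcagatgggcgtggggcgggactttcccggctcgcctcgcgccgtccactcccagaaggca
Anln chr9:22389207-22389356 minus strand: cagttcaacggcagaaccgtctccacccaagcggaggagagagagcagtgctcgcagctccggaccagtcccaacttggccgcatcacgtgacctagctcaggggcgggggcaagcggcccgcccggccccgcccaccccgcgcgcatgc
Espl1 chr15:102296143-102296292 plus strand: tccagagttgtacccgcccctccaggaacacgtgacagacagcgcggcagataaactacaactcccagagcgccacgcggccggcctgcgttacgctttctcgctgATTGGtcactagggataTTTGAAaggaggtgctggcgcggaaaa
Kif23 chr9:61946800-61946949 minus strand: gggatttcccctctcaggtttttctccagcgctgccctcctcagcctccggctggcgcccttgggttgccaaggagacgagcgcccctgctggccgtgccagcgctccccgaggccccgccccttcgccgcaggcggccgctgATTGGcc
Ube2c chr2:164769779-164769928 plus strand: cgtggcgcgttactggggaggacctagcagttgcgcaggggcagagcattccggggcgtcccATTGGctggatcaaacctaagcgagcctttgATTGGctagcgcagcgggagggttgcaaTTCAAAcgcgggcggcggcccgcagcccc
Cenpa chr5:30666736-30666885 plus strand: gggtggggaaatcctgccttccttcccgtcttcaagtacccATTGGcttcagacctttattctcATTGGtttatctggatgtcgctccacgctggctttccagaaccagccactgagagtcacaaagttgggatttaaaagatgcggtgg

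Within these stretches Espl1 held an ATTGG that began 44 bases before its start and a TTTGAA that began 27 bases before it. Ube2c held ATTGG at 88 and 57 bases and TTCAAA at 29 bases before its start, and Cenpa held ATTGG at 109 and 86 bases. Kif23 had 1 ATTGG, 7 bases before its start, while Birc5 and Anln had neither set of letters in the part shown. Past their start sites Kif23 and Cenpa had a TTTGAA, from base 3 and base 17, and Anln had a TTCAAA from base 22 and a TTTGAA from base 29. Members with both the strongest and the weakest falls thus carried these letters, and Birc5, with the strongest, did not carry them in its window.

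The RefSeq promoter table had an entry for 29 of the 34 tested members, each a window from 250 bases before to 50 bases after the start. CHR letters were in 22 of these 29 windows (75.9%), against 19.2% of all 32851 promoters of that length. CCAAT letters were in 19 of 29 (65.5%), against 37.4%, and at least 2 of them in 13 (44.8%), against 11.7%. Both kinds were in 17 of 29 (58.6%), against 7.52%. Melk, Birc5, Mad2l1, Nuf2 and Nusap1 had neither. The median mean log2 ratio was -1.37 for the 22 with a CHR and -1.45 for the 7 without, a difference that was not tested. A match of letters is a description of the window and not a binding site.

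Mitosis transcripts were lower in the OHT library than in the control library for all 34 tested members in all 4 contexts. The fall across contexts passed the test for 31 of 34 members, from Birc5, at a mean log2 ratio of -2.61, to Ube2c, at -0.95. No member was called higher. Of all 10599 transcripts tested, 7.48% were called lower and 6.40% higher. All 34 had an unadjusted p under 0.05, against 20.8%. The median of the members' mean log2 ratios was -1.39, and that of all tested transcripts was -0.03. Cdca3, Cenpa and Mki67 were not called, at limma adjusted p of 0.0504, 0.060 and 0.053. Each ratio divides OHT by control on the log2(value + 1) scale and is given as the mean ± SE over the 4 contexts, with p from limma adjusted by Benjamini-Hochberg over all tested transcripts. This scale understates the change of low transcripts.

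For all 34 tested members, each of the 4 control libraries exceeded each of the 4 OHT libraries, as it did for 12.6% of all tested transcripts. Summed over the 34, values were 48186, 33810, 32426 and 40484 normalised reads in the control libraries, taken in the order NT, HOXA9, PML-RARa, MLL-AF9. The OHT libraries summed to 13325, 22530, 11291 and 14488 in the same order, which is used for every set of 4 values below. As a share of all normalised reads these sums were 0.832%, 0.612%, 0.566% and 0.716% with ethanol and 0.225%, 0.375%, 0.194% and 0.251% with OHT. In RNA from whole cultures, fewer cells in mitosis and less RNA per cell cannot be told apart.

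The calls rested on all 4 pairs together. With any 1 pair left out, limma called 0 of the 34, while all 34 stayed negative and under an unadjusted p of 0.05. Of all 10599 transcripts, 1788 were lower at that unadjusted limma p without NT and 1957 without HOXA9. The same count was 1488 without PML-RARa and 1525 without MLL-AF9. The lowest limma adjusted p of a member was 0.079 without NT, 0.056 without HOXA9, and 0.10 without either fusion. Of all 10599 transcripts, limma called 2 lower and 24 higher without NT. It called no transcript at all without HOXA9, without PML-RARa or without MLL-AF9. edgeR's quasi-likelihood test on the recovered reads called all 34 lower, with 9.05% of all transcripts, and without 1 pair it called 11 (without NT, with 1.60% of all transcripts), 31 (without HOXA9, with 3.09%) and 0 (without PML-RARa, and likewise without MLL-AF9, where it called no transcript lower). DESeq2 called all 34 lower, with 12.9% of all transcripts.

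Most markers of macrophages, a cell type the cultures could hold, were higher with OHT. Of 12 listed, 12 were tested, and limma called 10 higher, where 6.40% of all transcripts were. None was called lower, and the median was 4.30. Fcgr1 and Vcam1 were not called, and Vcam1 was lower in NT and PML-RARa, at -2.27 and -2.31, and had a mean of -0.93. Their summed values were 3209, 4236, 2678 and 1878 in the control libraries and 10362, 21599, 10065 and 15910.0 in the OHT libraries. That is 3.23-fold, 5.10-fold, 3.76-fold and 8.47-fold higher in the contexts in turn, with the smallest rise in NT. C1qa, a complement gene among the listed markers, stood between 1.06 and 98.5 in the control libraries, where 1.06 is the lowest entry of the MLL-AF9 control library. With OHT C1qa stood at 622, 659, 268 and 177. The part of macrophages in the fall of the mitosis genes was not tested. Progenitor markers were called lower by limma for 1 of 8 tested (Myb), where 7.48% of all transcripts were, and by DESeq2 for 4, where 12.9% were. Their median was -1.03. Cd34 and Gata2 had positive mean ratios, at 0.57 and 0.24, and were not called by limma, while the other tested markers had negative ones. The listed markers summed to 11396, 8938, 10527 and 10622 with ethanol and 7383, 7485, 7544 and 8407 with OHT.

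**Figure D1:**
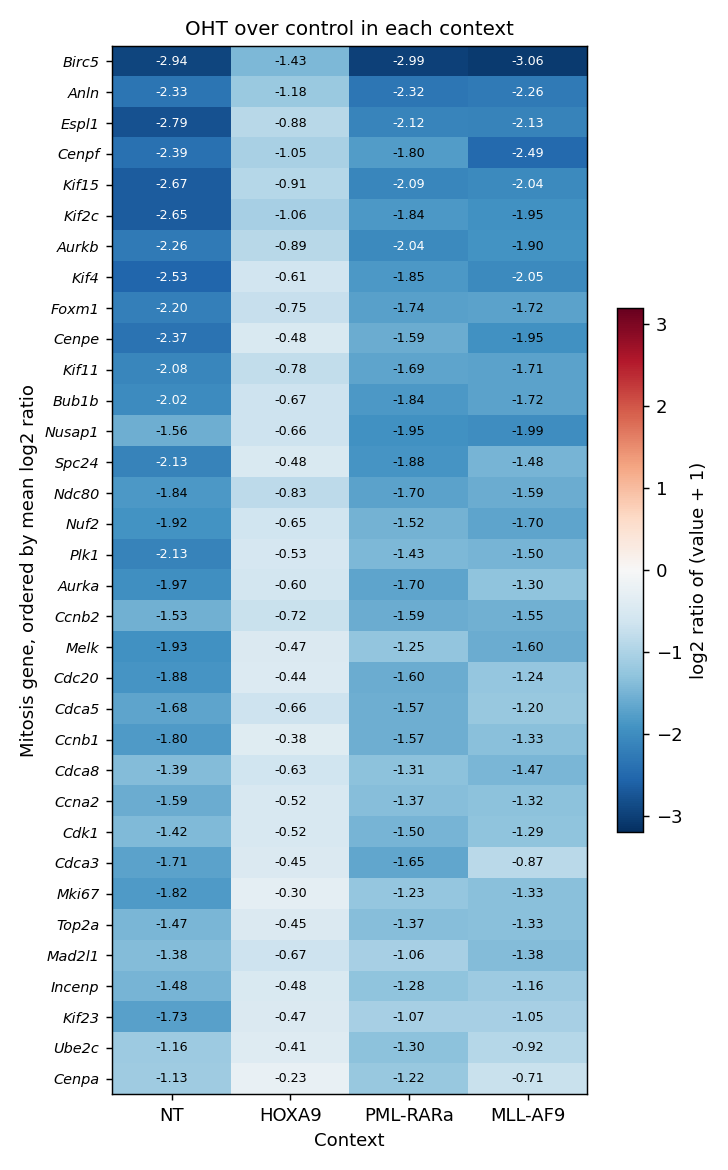
Log2 ratio of (value + 1), OHT over control, for the 34 tested mitosis genes (vertical axis, ordered by their mean) in each context (horizontal axis); colour and printed number give the ratio of 1 library to 1 library. All cells are negative, from -3.06 for Birc5 in MLL-AF9 to -0.23 for Cenpa in HOXA9, and the HOXA9 column is the palest for each gene.

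Cyclins, Cdk1 and the transcription factor Foxm1 fell for 5 of 5 members, with a median of -1.27. Foxm1 (NM_008021), a forkhead factor that activates late cell cycle genes, stood at 1584, 1027, 1179.8 and 1029 in the control libraries and at 345, 611, 353 and 311 in the OHT libraries. Its lowest control value was above its highest OHT value, which belonged to HOXA9. The mean log2 ratio was -1.60 ± 0.26 (adjusted p = 0.036, limma). Ccnb1 (NM_172301), cyclin B1, which activates Cdk1 for entry into mitosis, stood at 1555, 1068, 1174 and 1352 in the control libraries and at 445, 823, 395 and 538 in the OHT libraries. The OHT library of HOXA9 lay closest to its own control, and those of the other contexts lay much further below theirs. Its mean log2 ratio was -1.27 ± 0.27 (adjusted p = 0.046, limma).

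Ccna2 (NM_009828), cyclin A2, which acts from DNA synthesis to early mitosis, stood at 1848, 1152, 1191 and 1576 in the control libraries and at 614, 804, 462 and 632 in the OHT libraries. Cdk1 (NM_007659), the kinase that drives mitosis, stood at 1219, 1027, 1038 and 1293 in the control libraries and at 455, 717, 367 and 529 in the OHT libraries. Both showed the same order, with the HOXA9 library highest among those given OHT and the PML-RARa library lowest. Their mean log2 ratios were -1.20 ± 0.21 (adjusted p = 0.039, limma) for Ccna2 and -1.18 ± 0.20 (adjusted p = 0.038, limma) for Cdk1. Ccnb2, cyclin B2, had a mean log2 ratio of -1.35 ± 0.19 (adjusted p = 0.036, limma).

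Mitotic kinases fell for all 4 of the 6 listed that could be tested, with a median of -1.39. Plk1 (NM_011121), the Polo kinase of spindle assembly and mitotic exit, stood at 1395, 786, 770.3 and 916 in the control libraries and at 317, 544, 286 and 323 in the OHT libraries. Aurka (NM_011497), Aurora A, which acts at spindle poles, stood at 998, 643, 601 and 817 in the control libraries and at 255, 424, 184 and 332 in the OHT libraries. For both, NT had the highest control value and HOXA9 the highest OHT value, with no overlap between treatments. The mean log2 ratios were -1.40 ± 0.28 (adjusted p = 0.044, limma) for Plk1 and -1.39 ± 0.25 (adjusted p = 0.040, limma) for Aurka. Bub1b, the checkpoint protein BubR1, was at -1.56 ± 0.26 (adjusted p = 0.037, limma), and Melk, a kinase of dividing progenitors, at -1.31 ± 0.27 (adjusted p = 0.045, limma).

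The kinases Ttk and Bub1 were counted at only a few reads. Ttk (NM_001110265), the checkpoint kinase Mps1, stood at 2.48, 2.49, 1.91 and 4.24 in the control libraries and at 1.04, 0.905, 1.19 and 1.36 in the OHT libraries. That is 1 read in each OHT library and at most 4 in a control library, with 95% Poisson intervals that overlap in every context. Bub1 (NM_001113179), which recruits checkpoint proteins to kinetochores, stood at 7.45, 8.3, 5.74 and 6.35 in the control libraries and at 3.12, 6.33, 3.57 and 4.09 in the OHT libraries. Each OHT value was below its own control, but the OHT library of HOXA9 was above the control library of PML-RARa. The 5 members under the filter (these with Spc25, Kif20a and Ect2) ranged from 0.905 to 29.0 normalised reads, and each has 2 to 4 RefSeq transcripts in the GRCm38 annotation, while 24 of the 34 tested members have 1.

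The chromosomal passenger complex, which corrects kinetochore attachments and then directs cytokinesis, fell for 4 of 4 members, with a median of -1.49. Birc5 (NM_001012273), survivin, the subunit that targets the complex to centromeres, stood at 246, 121, 130.1 and 156 in the control libraries and at 31.2, 44.3, 15.5 and 17.7 in the OHT libraries. These OHT values rest on 30, 49, 13 and 13 reads. Its control values were all above every OHT value, and its mean log2 ratio, the lowest of all members, was -2.61 ± 0.33 (adjusted p = 0.035, limma).

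Aurkb (NM_011496), Aurora B, the kinase of the complex, stood at 1186, 961, 886 and 1190.2 in the control libraries and at 246, 518, 214 and 318 in the OHT libraries. NT and MLL-AF9 had the highest control values, and HOXA9 again kept the highest OHT value. Its mean log2 ratio was -1.78 ± 0.26 (adjusted p = 0.036, limma). The remaining subunits, Incenp and Cdca8 (borealin), had less negative ratios, at -1.10 ± 0.20 (adjusted p = 0.039, limma) and -1.20 ± 0.18 (adjusted p = 0.036, limma); the difference between subunits was not tested.

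**Figure D2:**
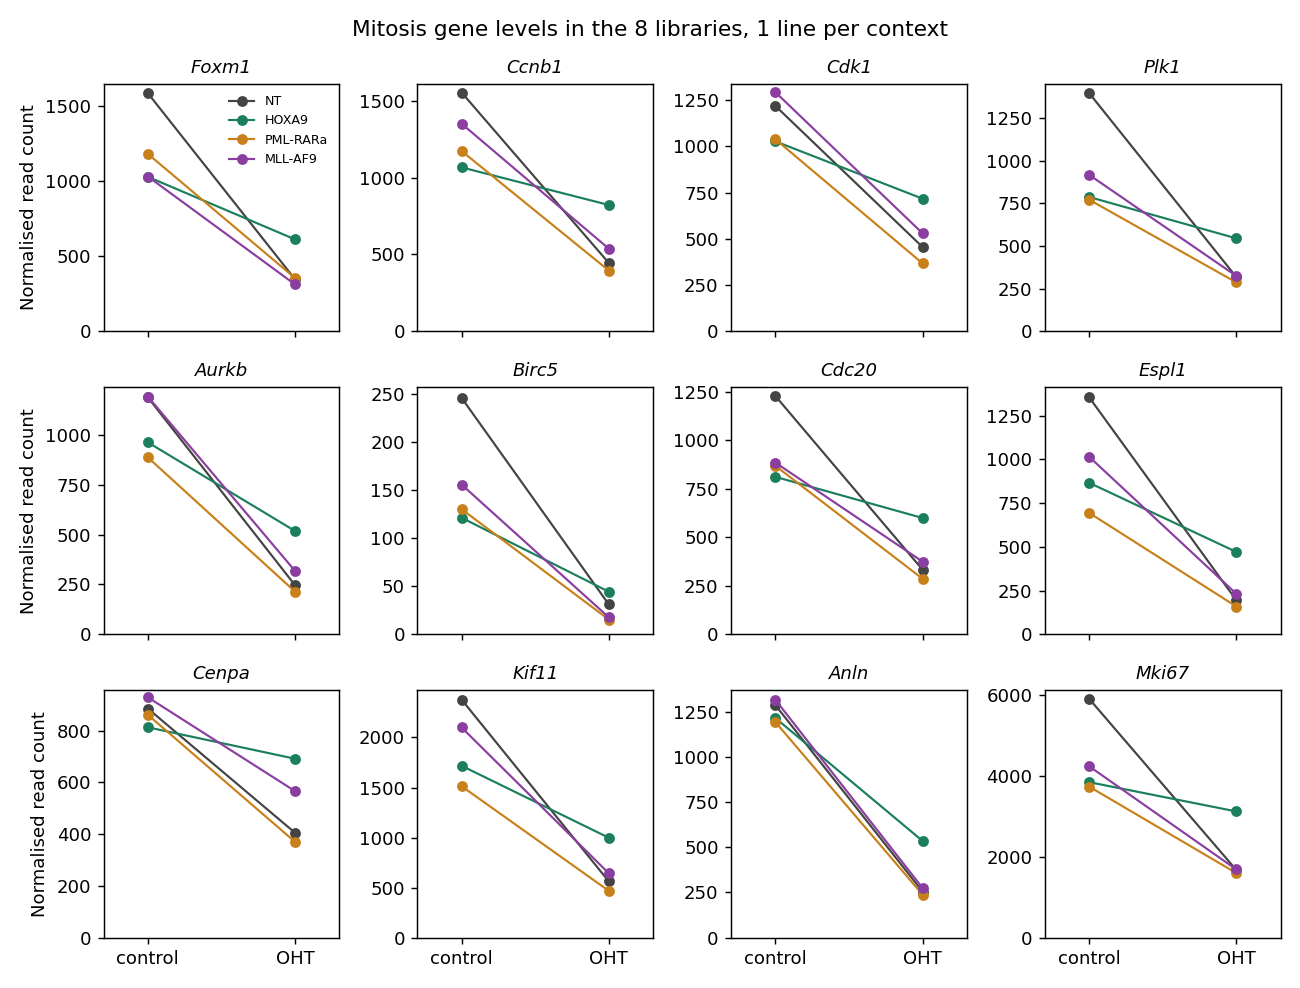
Normalised read count (vertical axis, from 0) of 12 mitosis genes in the control and the OHT library (horizontal axis), with 1 line for each context and 1 library behind each point. Lines fall in every panel, and the HOXA9 line is the flattest, with Ccnb1 going from 1068 to 823 in HOXA9 and from 1555 to 445 in NT.

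Anaphase genes, which encode the ubiquitin machinery, its checkpoint and the control of sister cohesion, were lower with OHT for all 6 members, with a median of -1.22. Limma called 5 of them lower, where 7.48% of all transcripts were. Cdc20 (NM_023223), the activator of the anaphase-promoting complex, stood at 1229, 812, 869 and 885 in the control libraries and at 334, 600.0, 287 and 375 in the OHT libraries. Ube2c (NM_026785), the ubiquitin-conjugating enzyme of that complex, stood at 836, 619, 661 and 851 in the control libraries and at 374, 467, 268 and 450.2 in the OHT libraries. Groups did not overlap for either gene, and the gap between the lowest control library and the highest OHT library, both of HOXA9, was narrow for each. The mean log2 ratios were -1.29 ± 0.27 (adjusted p = 0.046, limma) for Cdc20 and -0.95 ± 0.18 (adjusted p = 0.043, limma) for Ube2c.

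Mad2l1 (NM_019499), the checkpoint protein Mad2, which restrains Cdc20, stood at 1032, 578, 588 and 892 in the control libraries and at 396, 362, 282 and 341 in the OHT libraries. It was the exception to the order of the OHT libraries: NT, not HOXA9, had the highest of the 4. Its mean log2 ratio was -1.12 ± 0.17 (adjusted p = 0.036, limma). Espl1 (NM_001014976), separase, the protease that cuts cohesin at anaphase, stood at 1355, 867, 695 and 1016 in the control libraries and at 195, 471, 159 and 232 in the OHT libraries. The fall was steep in NT, PML-RARa and MLL-AF9 and smaller in HOXA9. Its mean log2 ratio of -1.98 ± 0.33 (adjusted p = 0.037, limma) was the third lowest of the members. Cdca5 (sororin), which protects cohesion, was at -1.28 ± 0.21 (adjusted p = 0.036, limma). Cdca3, which helps degrade Wee1, was at -1.17 ± 0.26 (adjusted p = 0.0504, limma) and was not called.

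Kinetochore and centromere genes were lower with OHT for all 6 tested, with a median of -1.49. Limma called 5 of them lower, where 7.48% of all transcripts were. Ndc80 (NM_023294), the kinetochore subunit that grips microtubules, stood at 712, 431, 339.7 and 532 in the control libraries and at 197, 242, 104 and 176 in the OHT libraries. Cenpe (NM_173762), the kinesin that aligns chromosomes, stood at 2000.5, 1219.6, 1031 and 1430.5 in the control libraries and at 385, 872, 343 and 369.7 in the OHT libraries. Both had their highest control value in NT and their lowest OHT value in PML-RARa. The mean log2 ratios were -1.49 ± 0.20 (adjusted p = 0.035, limma) for Ndc80 and -1.60 ± 0.33 (adjusted p = 0.046, limma) for Cenpe. Cenpa (NM_007681), the histone H3 variant that marks centromeres, stood at 885, 813, 861 and 929 in the control libraries and at 405, 691, 370.1 and 566 in the OHT libraries. Its control values were close to each other, and its HOXA9 libraries differed little. Its mean log2 ratio of -0.82 ± 0.20 (adjusted p = 0.060, limma) was the highest of the members and was not called.

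Nuf2 and Spc24, partners of Ndc80 in its complex, were at -1.45 ± 0.24 (adjusted p = 0.037, limma) and -1.49 ± 0.30 (adjusted p = 0.045, limma). Cenpf, a large protein of the outer kinetochore, was at -1.93 ± 0.28 (adjusted p = 0.036, limma). Spc25, the fourth subunit of the Ndc80 complex, ranged from 11.5 to 29.0 in control libraries and from 8.33 to 15.0 in OHT libraries and was not tested.

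Kinesins, the motors that push, pull and bundle spindle microtubules, fell for all 5 of the 6 that could be tested, with a median of -1.76. Kif11 (NM_010615), the motor Eg5, which separates the spindle poles, stood at 2378, 1717, 1513 and 2099.7 in the control libraries and at 562, 998, 468 and 643 in the OHT libraries. Kif2c (NM_134471), the microtubule depolymerase MCAK, stood at 984, 625, 485 and 656 in the control libraries and at 156, 299, 134 and 169 in the OHT libraries. Kif23 (NM_024245), a subunit of centralspindlin at the midzone, stood at 1268, 791, 790.4 and 775 in the control libraries and at 382, 572, 375 and 374 in the OHT libraries. Control and OHT libraries did not overlap for any of the 3, and PML-RARa had the lowest OHT value for Kif11 and Kif2c. The mean log2 ratios were -1.56 ± 0.24 (adjusted p = 0.036, limma) for Kif11, -1.88 ± 0.27 (adjusted p = 0.036, limma) for Kif2c and -1.08 ± 0.23 (adjusted p = 0.046, limma) for Kif23. Kif15, which backs up Eg5, was at -1.93 ± 0.31 (adjusted p = 0.036, limma), and the chromokinesin Kif4 was at -1.76 ± 0.34 (adjusted p = 0.042, limma). Kif20a, a motor of cytokinesis, ranged from 8.61 to 16.5 in control libraries and from 4.16 to 9.95 in OHT libraries and was not tested.

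Of the spindle and cytokinesis genes, 2 of 5 could be tested and both fell. Anln (NM_028390), anillin, the scaffold of the contractile ring, stood at 1286, 1215, 1192 and 1315 in the control libraries and at 255, 535, 238 and 274 in the OHT libraries. Control values were within a narrow band, and the OHT values of NT, PML-RARa and MLL-AF9 lay close together under that of HOXA9. Its mean log2 ratio was -2.02 ± 0.24 (adjusted p = 0.035, limma). Nusap1, which bundles spindle microtubules, was at -1.54 ± 0.26 (adjusted p = 0.038, limma) with values of 11.9 to 69.5. Ect2, the activator of RhoA in cytokinesis, stood between 1.36 and 7.47 and was not tested.

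Chromosome structure was represented by 2 abundant transcripts. Limma called 1 of them lower, where 7.48% of all transcripts were. Top2a (NM_011623), the topoisomerase that untangles sister chromatids, stood at 4282, 3462, 3621 and 4349 in the control libraries and at 1542, 2531, 1401 and 1729.9 in the OHT libraries. Mki67 (NM_001081117), the Ki-67 protein that coats mitotic chromosomes and serves as a marker of cycling cells, stood at 5913, 3849.7, 3739.5 and 4243 in the control libraries and at 1674, 3125, 1598 and 1688 in the OHT libraries. Both were lower with OHT by more in NT, PML-RARa and MLL-AF9 than in HOXA9, where the libraries of Mki67 were closest. The mean log2 ratios were -1.16 ± 0.21 (adjusted p = 0.040, limma) for Top2a and -1.17 ± 0.27 (adjusted p = 0.053, limma) for Mki67.

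**Figure D3:**
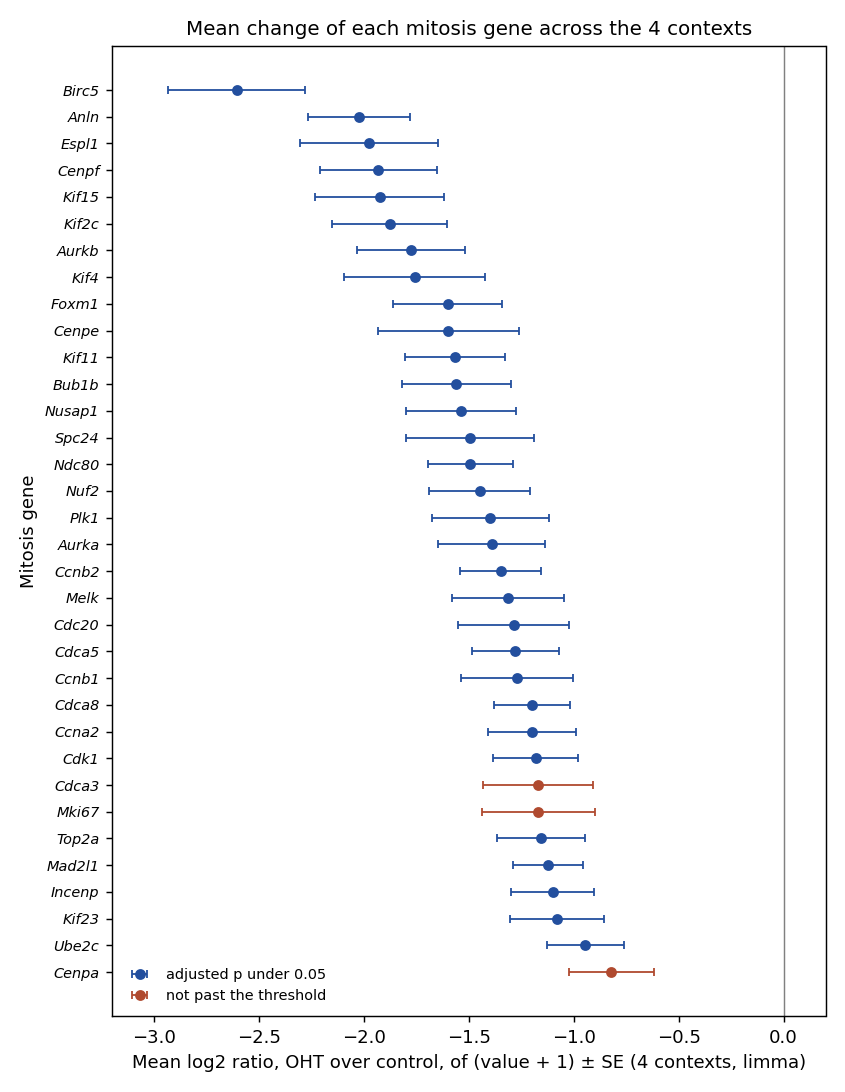
Mean log2 ratio of (value + 1), OHT over control, over the 4 contexts (horizontal axis) for the 34 tested mitosis genes (vertical axis), with bars for the SE, blue points for members called by limma and red points for those not called. Means run from -2.61 for Birc5 to -0.82 for Cenpa, and the 3 not called are Cdca3, Cenpa and Mki67.

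Per kilobase of transcript, control levels of the tested members ran from 19.5 normalised reads for Nusap1 to 767 for Ube2c (mean of the 4 control libraries). Top2a stood at 752 and Cdca8 at 655, while Birc5 was low, at 48.9, and Birc5 and Nusap1 each have 2 RefSeq transcripts in the GRCm38 annotation. Of the 34 members, 17 exceeded 0.5 reads per base in some library, and their median mean log2 ratio was -1.20, against -1.60 for the 17 at or under that density. The part of read density in the size of the fall was not tested. With all transcripts above that density left out, limma called 17 of the 17 remaining members lower, with 582 of 8428 transcripts.

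Within single contexts there is no replicate and no test, and falls are given as folds between 2 libraries, counted where the higher value was 20 or more. In NT, 34 of 34 members were at least 2-fold lower with OHT, against 7.93% of all tested transcripts. In PML-RARa 34 were, against 12.4%, and in MLL-AF9 31 were, against 13.9%. In HOXA9 only Birc5, Anln, Kif2c and Cenpf were, 4 of 34 against 5.14%. None was 2-fold higher in any context, although 12.0%, 7.96%, 7.83% and 13.5% of all transcripts were in the 4 contexts in turn. The median member was 3.73-fold lower in NT, 3.02-fold in PML-RARa, 2.88-fold in MLL-AF9 and 1.54-fold in HOXA9. Median log2 ratios of the members were -1.90, -0.62, -1.60 and -1.52 for the contexts in turn, beside 0.03, 0.01, -0.09 and -0.10 for all transcripts.

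Birc5 had the lowest ratio in each context, from 2.73-fold lower in HOXA9 to 8.78-fold in MLL-AF9. Cenpa had the highest ratio in 3 contexts, and Mad2l1 had it in PML-RARa, at 2.09-fold lower. The authors' deposited table, which compares 1 library with 1 library and gives an unadjusted p, held members lower at p under 0.05 as follows: 14 in NT (1.66% of all transcripts), 6 in MLL-AF9 (1.37%), 5 in PML-RARa (1.92%) and 0 in HOXA9 (0.509%). The lowest p for a member in the authors' deposited table was 0.00814 for Espl1 in NT, and Birc5 had it elsewhere, at 0.0100 in MLL-AF9, 0.0114 in PML-RARa and 0.191 in HOXA9.

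**Figure D4:**
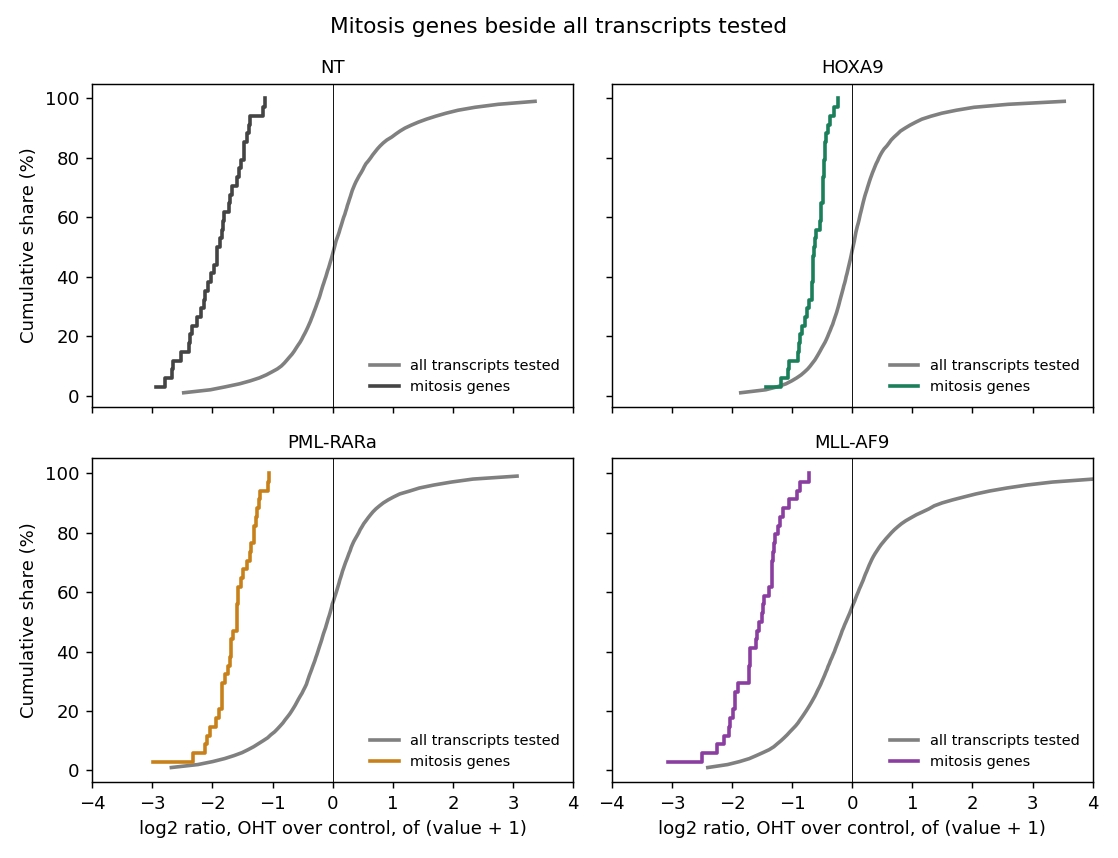
Cumulative share (vertical axis, percent) of all 10599 tested transcripts (grey, percentiles 1 to 99) and of the 34 mitosis genes (coloured steps) against the log2 ratio of (value + 1), OHT over control (horizontal axis), with 1 panel for each context. The members lie below the middle of all transcripts in each context, with a median of -0.62 in HOXA9 and of -1.52 to -1.90 in the remaining contexts.

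All 34 members were lower in every context with their smallest fall in HOXA9, as were 14.5% of all tested transcripts. Of the 2813 transcripts that were lower in all 4 contexts, 54.8% had their smallest fall in HOXA9. The largest fall was in NT for 25 members, in MLL-AF9 for 5 and in PML-RARa for 4. In a contrast chosen after these ratios were seen, the HOXA9 ratio was set against the mean of the other 3. The median difference was 1.10, all 34 were positive, and limma called none at an adjusted p under 0.05, as it called no transcript. At an unadjusted p under 0.05, 25 of 34 members were higher, against 2.30% of all transcripts. That number of members was smaller without any 1 of the other pairs, and with ratios centred on all transcripts. Without NT the members' median difference was 0.94, beside 0.13 for all transcripts. It was 1.12 beside 0.07 without PML-RARa, 1.13 beside 0.10 without MLL-AF9, and 1.04 beside 0.03 with centred ratios. HOXA9 is 1 pair in each of these fits.

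NT, the cells with no introduced gene, was set against the mean of the 3 transduced contexts. The median difference was -0.64 and all 34 members were more negative in NT, but without the HOXA9 pair the median difference was -0.30 and 31 were more negative. Limma called none (lowest adjusted p 0.97) and none had an unadjusted p under 0.05, against 1.99% of all transcripts. Over the 3 transduced contexts alone, the median ratio was -1.24. Limma called 0 of 34 members there, with 0.0189% of all transcripts called lower, and the lowest member adjusted p was 0.079. All 34 had an unadjusted p under 0.05, against 16.9%. edgeR called 11 (1.60% of all transcripts) and DESeq2 32 (7.22%) in the same libraries.

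Control levels were compared between contexts without OHT, again with 1 library each. NT had the highest control value for 28 of 34 members, against 32.5% of all tested transcripts, and MLL-AF9 had it for the other 6. The lowest was in PML-RARa for 18, in HOXA9 for 15 and in MLL-AF9 for 1. The order NT, MLL-AF9, HOXA9, PML-RARa held for 15 members, and NT, MLL-AF9, PML-RARa, HOXA9 for 10. The highest over the lowest control value had a median of 1.58 over the members, from 1.10 for Anln to 2.18 for Spc24.

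Set against NT, 2 members (Birc5 and Spc24) were at least 2-fold lower in HOXA9, beside 6.59% of all transcripts. In PML-RARa 3 were (Ndc80, Nuf2 and Kif2c), beside 7.42%, and in MLL-AF9 none was, beside 10.1%. The median log2 differences from NT were -0.61, -0.64 and -0.22; the 3 comparisons share the NT library. Among the transduced control libraries no member was 2-fold apart, beside 5.09% lower and 6.20% higher for PML-RARa over HOXA9, 10.2% and 2.70% for MLL-AF9 over HOXA9, and 14.2% and 7.14% for MLL-AF9 over PML-RARa. The medians there were -0.02, 0.31 and 0.39.

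With OHT the order changed. HOXA9 had the highest OHT value for 33 of 34 members, all but Mad2l1, against 34.5% of all transcripts, and the median member stood there at 1.71 times its mean over the other OHT libraries. PML-RARa had the lowest OHT value for 31 members and MLL-AF9 for 3. On the log2 scale, median levels relative to the NT control library were -1.90, -1.22, -2.23 and -1.89 in the OHT libraries in the order above.

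**Figure D5:**
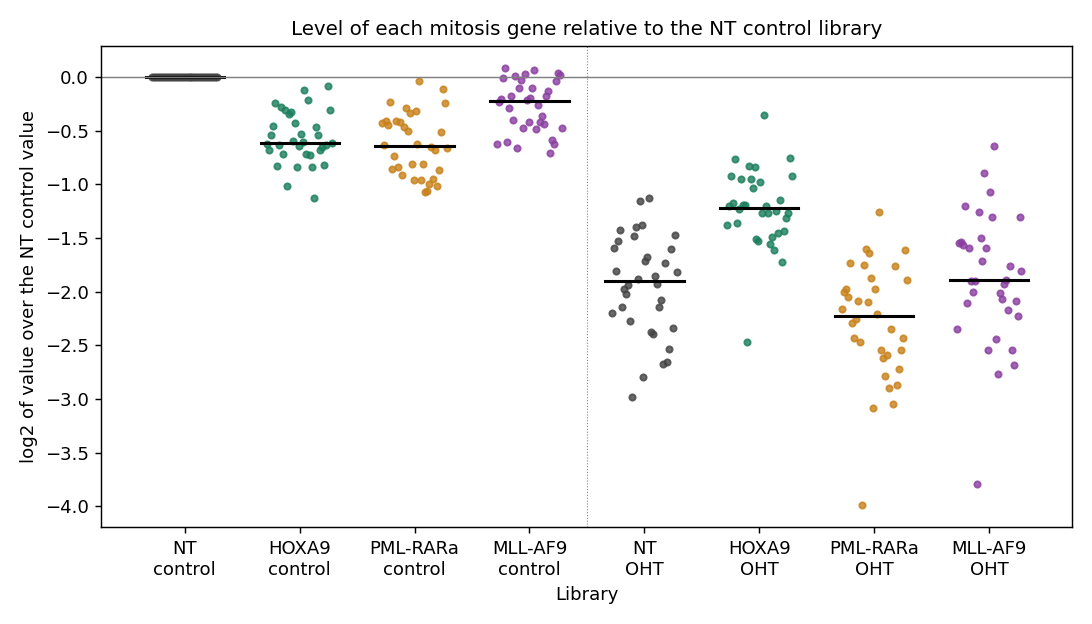
Log2 of the normalised read count over that in the NT control library (vertical axis) for the 34 tested mitosis genes, 1 point each, in the 8 libraries (horizontal axis); bars are medians over genes. Control medians lie between -0.64 and 0, and OHT medians are -1.22 in HOXA9 and -2.23 to -1.89 in the other contexts.

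Of 105 further genes of mitosis in 4 lists, 91 were tested, 57 were called lower and none higher, with a median of -1.29, where 7.48% of all transcripts were called lower. Among other spindle, kinesin and cytokinesis genes 18 of 19 were called lower, with a median of -1.60. Cit, citron kinase of the midbody, Kif14 and Fam64a were lowest, at -2.37, -2.02 and -1.88. Tacc3, Arhgap11a and Ckap5 were highest, at -1.05, -0.87 and -0.69, and Arhgap11a was not called (limma adjusted p = 0.058).

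Among other centromere and kinetochore genes 18 of 26 were called lower, where 7.48% of all transcripts were. Their median was -1.29. Kntc1 and Hjurp, which loads Cenpa onto centromeres, were among the lowest, at -1.90 and -1.73. Zw10, Mis12 and Zwint were highest, at -0.31, -0.12 and -0.004, and were not called. Condensin and cohesin genes were called lower for 8 of 18, with a median of -0.79. The cohesin protector Sgol1, the condensin subunit Ncapg and Sgol2 were lowest, at -1.92, -1.62 and -1.47, while the cohesin subunits Stag1 and Stag2 and the cohesin release factor Wapal were at -0.13, 0.00 and 0.01.

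Other checkpoint, anaphase-promoting complex and entry genes were called lower for 13 of 28, where 7.48% of all transcripts were. Their median was -0.64. The phosphatase Cdc25c and the kinases Pkmyt1 and Mastl, which set the timing of Cdk1 activity, were lowest, at -2.17, -1.67 and -1.66. Anapc11, Anapc10 and Anapc2, subunits of the anaphase-promoting complex, were highest, at 0.07, 0.12 and 0.14, and were not called.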

How the data were processed

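mRNA of 8 mouse samples was sequenced after a TruSeq preparation, which does not mark strand, per the labels' protocols. Per the submitters' processing notes, TopHat and DESeq were used and the build was mm9, without versions. Which counter and annotation were used is not given in the sources used here. Per the file headers, the 4 deposited tables hold the authors' normalised read count (a signal scaled by size factors) for each RefSeq transcript and library. They also hold the authors' fold change (ratio) of OHT over control, its log2, and an unadjusted p-value of 1 library against 1 library, per the file headers. Columns of the NT table carry a heading that means empty, and that table was matched to its samples by the context in its name. No value column was without a sample.

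Each library's values were whole multiples of its lowest value, and dividing by it recovered whole reads for 100% of the values (tolerance 0.02). The lowest value, held by 15.1% to 20.0% of transcripts in a library, was taken as 1 read. Whether it stands for 1 read or for none cannot be told from the values. Depth limits precision through these reads alone: Poisson intervals (95%) cover counting error only. The main test was limma (3.58.1, R 4.3.3) with the context as a block, two-sided, on the log2 of each value plus a pseudocount of 1, over transcripts with a mean of 20 or more, at a Benjamini-Hochberg adjusted p under 0.05. edgeR (4.0.16) and DESeq2 (1.42.0) on the recovered reads were alternatives. The pairing comes from the labels, which give each context 1 control and 1 OHT sample.

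The members and lists were chosen with earlier results of these data known. Values in every library are given for the best-known member of each role and for the 3 lowest and 3 highest mean ratios, and the wider lists by their 3 lowest and 3 highest, of which 1 gene is not reported here. The contrast of HOXA9 with the other contexts and edgeR without 1 pair were added after the data were seen. Other alternatives were a pseudocount of 10, no filter, no block, centred ratios, summed transcripts, a limit of 0.5 reads per base, a floor of 100 and a 1.5-fold threshold.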

Additional observations from a re-analysis of the deposited data

How the results depend on the processing

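Across the 4 contexts limma called 31 of 34 members lower, with 793 of all 10599 transcripts. A pseudocount of 10 gave 33 members and 891 transcripts, and no replicate block (context ignored) gave 33 and 610. Centred ratios gave 31 and 788, and summed transcripts gave 31, with 762 of 10519 symbols. With no filter on low values, 39 members were tested among 19353 transcripts. There limma called 4 members and 147 of all transcripts lower. All 39 were lower at an unadjusted limma p under 0.05, with 2695 of all transcripts. With transcripts over 0.5 reads per base left out, 17 members were tested and 17 called lower, with 582 of 8428 transcripts. Leaving out 1 pair gave 0 with limma for each pair, where at most 2 of all transcripts were called lower. The same with edgeR, added after the data were seen, gave 0 to 31. In the 3 transduced contexts 0 members were called by limma, 11 by edgeR and 32 by DESeq2. The contrasts of NT and of HOXA9 with the other contexts gave 0 under every alternative run. Between 2 libraries, a 1.5-fold threshold gave 19 members lower in HOXA9 with OHT in place of 4, and 13.1% of all transcripts in place of 5.14%. For control levels it gave 19 members lower for HOXA9 over NT (13.8% of all transcripts; 1 member at 2-fold with centred ratios), 19 lower for PML-RARa over NT (16.0%; 0 at 2-fold with centred ratios), 5 lower for MLL-AF9 over NT (16.4%) and 1 lower for PML-RARa over HOXA9 (10.8%). It gave 3 members higher for MLL-AF9 over HOXA9 (7.15% of all transcripts) and 4 higher for MLL-AF9 over PML-RARa (15.4%). No member's mean ratio changed sign under any alternative of the 4-context comparison. The values of the 5 members under the filter rest on few reads, and why they are low was not tested. With 1 library in each group, no value within a context has a replicate.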

Other observations

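Genes of DNA replication, which act before mitosis in the cycle, were called lower with OHT by limma for 11 of 25 tested and higher for none. Their median mean log2 ratio was -0.97, and 7.48% of all transcripts were called lower. edgeR called 17 of the 25 lower and DESeq2 23, with 9.05% and 12.9% of all transcripts. The replication initiation factors Mcm10 and Cdc45 and the thymidine kinase Tk1 were lowest, at -1.81, -1.76 (limma adjusted p = 0.0497) and -1.47. Chaf1b, Gins4 and Pcna, the sliding clamp of DNA polymerases, were highest, at -0.56, -0.42 and -0.12, and were not called. Medians of the list by context were lowest in NT, at -1.53, then MLL-AF9 at -1.13, PML-RARa at -1.05 and HOXA9 at -0.35.

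Of MuvB, MYB and pocket protein genes, 2 of 10 tested were called lower and none higher by limma, with a median of -0.28. Of all transcripts, limma called 7.48% lower. DESeq2 called 4 of the list lower and 1 higher, with 1362 lower and 1768 higher of all 10599 transcripts. The B-Myb gene Mybl2 and the MuvB subunit Lin9 were called, at -1.89 ± 0.27 and -0.96 ± 0.18 (limma adjusted p = 0.035 and 0.041). Rbl1 was at -0.73 (limma adjusted p = 0.11), E2f5 at -0.22, Lin37 at -0.04 and the retinoblastoma gene Rb1 at 0.39 (limma adjusted p = 0.11), none of them called by limma.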
